A study of Rattus norvegicus with 3 samples.

Results

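Peaks of H3K14Ac, the acetylation of lysine 14 of histone H3, were described on rat chromosomes 10, 12 and 20 beside the 17 other autosomes. The members were all peaks of the 5 deposited broad peak lists placed on chromosome 10, 12 or 20, and no measured value was used to choose them. They were 8356 of the 80135 peaks in the 5 lists, or 10.4%. These chromosomes are described as gene-dense. The number of genes on them was not analysed here, so the chromosomes are called by their numbers and no peak is assigned to a gene.

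Chromatin was immunoprecipitated with an anti-H3K14Ac antibody from whole cerebella (Cll) of Gunn rats (Hds Blue:Gunn-UDPGTj) at postnatal day 9 (P9) and sequenced. Hyperbilirubinemic pups (jj) gave 2 libraries, of which jj replicate 1 came from 1 animal and jj replicate 2 from a pool of 3 animals. Normobilirubinemic control pups (ctrl) of the same strain and age gave 1 library from a pool of 3 animals. The jj libraries were sequenced in 2 runs and the ctrl library in 1 run, so group and run cannot be told apart. The jj libraries also differ in their number of animals, and with 1 ctrl library no difference between jj and ctrl was tested.

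Acetylation of H3K14 is placed by acetyltransferases such as GCN5, PCAF and HBO1, is read by bromodomain proteins and is found at active promoters and enhancers. Gunn rats cannot conjugate bilirubin in the liver when homozygous for the jj defect, so jj pups are jaundiced. The cerebellum grows and forms its layers mostly after birth in the rat. Rat chromosome 20 carries RT1, the major histocompatibility complex of the rat. In whole tissue, a peak shared by many cells and a stronger peak in fewer cells cannot be told apart.

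Of the own list of each library, chromosomes 10, 12 and 20 held 2831 of 31120 peaks in jj replicate 1 (9.10%), 1664 of 14256 in jj replicate 2 (11.7%) and 2325 of 22026 in ctrl (10.6%). Of the lists in which a jj library was called with ctrl as the control, they held 1536 of 12563 peaks of jj replicate 1 (12.2%) and 0 of 170 peaks of jj replicate 2. In the own lists the ctrl share fell between the jj shares. Each chromosome was taken to end with its last peak in any list. The lengths were 110.7 Mb for chromosome 10, 46.8 Mb for chromosome 12 and 55.3 Mb for chromosome 20. Together they made 212.7 Mb, beside 2344 Mb for the 17 other autosomes.

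Peaks were denser on the 3 chromosomes than on the other autosomes in all 3 libraries. In jj replicate 1, chromosomes 10, 12 and 20 held 13.3 peaks per Mb (95% interval 12.8 to 13.8) and the other autosomes 10.6, a ratio of 1.25. In jj replicate 2 the densities were 7.82 (7.45 to 8.21) and 4.89 peaks per Mb, a ratio of 1.60. In ctrl they were 10.9 (10.5 to 11.4) and 7.51 peaks per Mb, a ratio of 1.46. The ctrl ratio fell between the jj ratios, and the groups did not separate. The ratio was lowest in the longest list and highest in the shortest, and the ctrl list was of middle length. Group and list length therefore cannot be told apart in this order. These are exact Poisson intervals and, like the binomial intervals given later, cover counting error only, since neighbouring peaks are not independent and the lists hold no read totals.

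The 3 chromosomes differed among themselves. Chromosome 12 held 14.5 peaks per Mb in jj replicate 1, 7.89 in replicate 2 and 12.1 in ctrl. Chromosome 10 held 13.6, 8.55 and 11.3 peaks per Mb in the same order of libraries. Chromosome 20 held 11.8, 6.32 and 9.28 peaks per Mb. Chromosomes 10 and 12 took the highest ranks among the 20 autosomes in each library, with chromosome 12 first in jj replicate 1 and ctrl and chromosome 10 first in jj replicate 2. Chromosome 20 ranked 6 of 20 in jj replicate 1 and 3 of 20 in both jj replicate 2 and ctrl. Its nearest neighbour in jj replicate 2 and ctrl, chromosome 7, held 6.17 and 9.12 peaks per Mb, within the counting intervals of chromosome 20 (5.67 to 7.02 and 8.50 to 10.1). In jj replicate 1 chromosome 7 was denser than chromosome 20, at 12.4 peaks per Mb.

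The excess in density differed with the strength of the peaks. Strength is given here by the −log10 q of the authors' peak caller, where q is the p-value adjusted for the number of sites examined. The lowest −log10 q was 1.02 in jj replicate 1, 1.00 in replicate 2 and 1.01 in ctrl, so the own lists stop at about the same limit. Weak peaks, with a −log10 q under 2, were sparser on chromosomes 10, 12 and 20 than on the other autosomes. Their densities were 2.00 against 3.90 per Mb in jj replicate 1, 0.541 against 0.652 in jj replicate 2 and 1.77 against 2.34 in ctrl, which are ratios of 0.512, 0.829 and 0.756. Peaks with a −log10 q of 2 to 5 had ratios of 1.10, 1.46 and 1.48, and those of 5 to 10 had 1.81, 1.90 and 1.98. Peaks with a −log10 q of 10 to 20 were denser too, at 3.32 against 1.60 per Mb in jj replicate 1, 2.19 against 1.22 in jj replicate 2 and 3.52 against 1.87 in ctrl. Those ratios were 2.08, 1.80 and 1.88. At a −log10 q of 20 or more the ratios were 1.79 in jj replicate 1 and 1.68 in ctrl, and 1.03 in jj replicate 2, where this class held 15 peaks on the 3 chromosomes. With each list held to its 14256 peaks of highest −log10 p, the length of the shortest list, the ratio of all peaks was 1.89 in jj replicate 1, 1.60 in replicate 2 and 1.83 in ctrl.

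Weak peaks thus made up less of the lists on these chromosomes. In jj replicate 1 they were 15.0% of the peaks on chromosomes 10, 12 and 20 and 36.7% of those on the other autosomes. The shares were 6.91% and 13.3% in jj replicate 2 and 16.2% and 31.1% in ctrl. Chromosome 12 had the lowest density of weak peaks of all 20 autosomes in jj replicate 1 (1.67 per Mb), and chromosome 10 had the lowest in ctrl (1.54 per Mb). In jj replicate 2 the lowest was chromosome 19 (0.355 per Mb), with chromosome 12 next (0.449 per Mb) and chromosome 10 at 0.578 per Mb, 15 of 20 from the highest. In ctrl the density of weak peaks on chromosome 20, 2.30 per Mb, was close to the median of the other autosomes, 2.27 per Mb. The median −log10 q of the peaks on the 3 chromosomes was 11.4 in jj replicate 1, 7.18 in replicate 2 and 8.64 in ctrl, beside 3.86, 6.28 and 5.49 on the other autosomes. The gap was widest in jj replicate 1, the library with the longest list.

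The fold enrichment, the ratio of the signal of a peak to the coverage the caller expects there, followed the same pattern. Its median on chromosomes 10, 12 and 20 was 6.71 in jj replicate 1, 6.19 in replicate 2 and 6.28 in ctrl, beside 4.45, 5.86 and 5.23 on the other autosomes. Among peaks with a −log10 q of 20 or more the medians were 9.732 on the 3 chromosomes and 9.730 on the others in jj replicate 1, 10.6 and 10.1 in jj replicate 2, and 9.68 and 9.76 in ctrl. From 2 to 5 they were 4.28 and 4.08, 4.70 and 4.55, and 4.46 and 4.32. From 10 to 20 they were 7.72 and 7.89, 8.18 and 8.13, and 8.03 and 8.07. Under 2 and from 5 to 10 the median was lower on the 3 chromosomes in jj replicate 2 and higher in jj replicate 1. In ctrl it was higher under 2 and lower from 5 to 10. The sign of the difference in fold thus varied between classes and libraries. Within classes the difference was small next to that over all peaks in jj replicate 1 and ctrl. In jj replicate 2 it was smaller than that over all peaks in each class under 20. It was not smaller at 20 or more, where 15 peaks lay on the 3 chromosomes. In jj replicate 2 the highest median fold of an autosome, 6.45, was that of chromosome 19, ahead of chromosome 10 with 6.26 and chromosome 12 with 6.24.

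Peaks on the 3 chromosomes were slightly wider at the median. The median width was 613 bp in jj replicate 1, 548.5 bp in replicate 2 and 544 bp in ctrl, beside 579, 527 and 516 bp on the other autosomes. The middle 50% of widths ran from 450.5 to 844 bp on the 3 chromosomes in jj replicate 1, from 416.8 to 744.2 bp in jj replicate 2 and from 393 to 764 bp in ctrl. On the other autosomes it ran from 409 to 850, from 388 to 743 and from 363 to 759 bp. Its upper end thus differed little between the sets, slightly lower on the 3 chromosomes in jj replicate 1 and slightly higher in jj replicate 2 and ctrl. By chromosome, the medians in jj replicates 1 and 2 and ctrl were 625, 550.0 and 556 bp on chromosome 10, 600.0, 540.0 and 517 bp on chromosome 12 and 589, 553 and 536 bp on chromosome 20. Chromosome 10 was first of 20 in jj replicate 1 and level with chromosome 19 in ctrl, while chromosome 12 ranked 12 of 20 in ctrl.

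Among peaks of like strength the difference in width had no single direction. Weak peaks had median widths of 436 bp on the 3 chromosomes and 470.0 bp on the other autosomes in jj replicate 1, 369 and 354 bp in jj replicate 2, and 349.5 and 369 bp in ctrl. Peaks with a −log10 q of 10 to 20 had medians of 643 and 636 bp in jj replicate 1, 651.5 and 660.0 bp in jj replicate 2, and 637.5 and 657 bp in ctrl. From 2 to 5 the medians were 407 and 422 bp in jj replicate 1, 404.5 and 391 bp in jj replicate 2, and 373 and 380.0 bp in ctrl, and from 5 to 10 they were 481 and 488, 563 and 558, and 497 and 494 bp. The sign of the difference varied between classes and libraries, and in jj replicate 2 the 3 chromosomes had the wider median in each class under 10. At 20 or more the medians were 763 and 774 bp in jj replicate 1, 641 and 682 bp in jj replicate 2, and 708.5 and 711 bp in ctrl, narrower on the 3 chromosomes in each library. With peaks under a −log10 q of 5 left out, the median on the 3 chromosomes was below that on the others by 10 bp in jj replicate 1, 17 bp in replicate 2 and 23 bp in ctrl.

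Peaks of at least 2000 bp were few. On chromosomes 10, 12 and 20 they numbered 50 of 2831 in jj replicate 1 (1.77%), 13 of 1664 in jj replicate 2 (0.781%) and 25 of 2325 in ctrl (1.08%). The shares on the other autosomes were 1.53%, 1.04% and 1.07%, so the order of the sets was not the same in all libraries. Chromosome 12 had 9, 1 and 2 such peaks, which made it 18 of 20 autosomes by share in jj replicate 2 and ctrl. The widest peak on the 3 chromosomes measured 3971 bp in jj replicate 1, 3541 bp in replicate 2 and 3605 bp in ctrl, against 11019, 5968 and 6027 bp on the other autosomes.

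Peaks lay closer together on the 3 chromosomes. The share of peaks whose nearest other peak lay within 10 kb, measured edge to edge, was 29.4% in jj replicate 1 (95% exact binomial interval 27.7% to 31.1%), 20.9% in replicate 2 (18.9% to 22.9%) and 26.2% in ctrl (24.5% to 28.1%). On the other autosomes it was 19.7%, 14.2% and 16.7%. The ctrl share again lay between the jj shares. The difference between the sets, 9.76, 6.62 and 9.55 percentage points, was 3.57, 1.71 and 2.62 points with a limit of 5 kb. With peaks under a −log10 q of 5 left out it was 7.96, 3.20 and 5.87 points. By chromosome it was 31.0%, 21% and 27.9% on chromosome 10 in jj replicates 1 and 2 and ctrl, 29.7%, 24.4% and 28.3% on chromosome 12, and 25.5%, 16.6% and 19.9% on chromosome 20. Chromosomes 10 and 12 were among the first 3 of 20 in each library, and chromosome 20 ranked 4, 7 and 7. In jj replicate 2 the highest share, 24.9%, was that of chromosome 17.

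A dense chromosome has short gaps whether or not its peaks are grouped. The median gap to the next peak on chromosomes 10, 12 and 20 was 36.3 kb in jj replicate 1, 57.8 kb in replicate 2 and 43.8 kb in ctrl, and the mean gap 74.4, 127.1 and 90.7 kb. The median was thus 0.488, 0.455 and 0.482 of the mean. On the other autosomes it was 0.595, 0.459 and 0.559 of the mean. The median gap was thus shorter next to the mean on the 3 chromosomes in jj replicate 1 and ctrl and about equal in jj replicate 2. The sets differ in density, so this is not a measure of unevenness at equal density.

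The spread of peaks over windows differed among the 3 chromosomes. The 3 chromosomes make 214 windows of 1 Mb, of which 1 held no peak in jj replicate 1, 14 held none in jj replicate 2 and 4 held none in ctrl. The median window held 11, 7 and 9 peaks, and the fullest 39, 28 and 34. The tenth of windows with the most peaks held 23.3% of the peaks of jj replicate 1 on these chromosomes, 27.1% of jj replicate 2 and 23.7% of ctrl. On the other autosomes that share was 23.0%, 32.6% and 27.0%, so in jj replicate 2 and ctrl the fullest windows of the 3 chromosomes together took a smaller part than elsewhere. The median window of the other autosomes held fewer peaks, at 9, 4 and 6, so this share does not compare unevenness at equal density. By chromosome it was 23.9%, 25.8% and 23.8% on chromosome 10, 20.8%, 24.9% and 20.7% on chromosome 12, and 28.6%, 35.0% and 29.4% on chromosome 20. Chromosome 20 was above the pooled value of the other autosomes in each library, and chromosome 7 was higher still, at 29.7%, 39.8% and 34.1%. Counts per window of the libraries moved together over the 214 windows, with Spearman's rho of 0.90 between the jj libraries, 0.93 between jj replicate 1 and ctrl and 0.93 between jj replicate 2 and ctrl. The libraries share the sequence of each window and neighbouring windows are not independent, so these values only describe likeness.

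To follow peaks along each chromosome and across libraries, peaks of the 3 own lists that overlapped by at least 1 bp were merged into regions. Chromosomes 10, 12 and 20 held 3200 regions and the other autosomes 31073. On chromosome 10, the part from 20 to 30 Mb was the sparsest of the 10 Mb bins, with 6.3 peaks per Mb in jj replicate 1, 2.1 in replicate 2 and 3.7 in ctrl. The part from 80 to 90 Mb held 21, 12.9 and 18.2 peaks per Mb, and the part from 10 to 20 Mb held 19.5, 12.5 and 16.2. Each library thus had its sparse and dense stretches in the same places of chromosome 10, and the last 0.677 Mb, with 15 regions, was at least as dense.

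Chromosome 12 was densest from 40 Mb to its end in jj replicates 1 and 2, and about equally dense there and from 10 to 20 Mb in ctrl. Its first 10 Mb held 15.6, 6.9 and 11.3 peaks per Mb in jj replicates 1 and 2 and ctrl. From 10 to 20 Mb it held 17.2 peaks per Mb in jj replicate 1, 9.0 in replicate 2 and 14.9 in ctrl, and from 40 Mb to its end 18.2, 11.1 and 14.9. The part from 20 to 30 Mb held 9.1, 4.6 and 8.4 peaks per Mb, and that from 30 to 40 Mb 13.7, 8.9 and 11.8. Chromosome 12 was therefore uneven as well, although its sparsest bin was denser than that of chromosome 10 in each library.

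Chromosome 20 had a dense start and a sparse end. Its first 10 Mb held 20.7 peaks per Mb in jj replicate 1, 13.4 in replicate 2 and 17.4 in ctrl. From 50 Mb to its end it held 7.81, 1.52 and 4.95 peaks per Mb. Of the 226 regions in the first 10 Mb, 55.3% were called in all 3 libraries, beside 39.4% of the 137 regions from 10 to 20 Mb, 53.1% of the 98 from 20 to 30 Mb, 18.1% of the 149 from 30 to 40 Mb, 41.4% of the 111 from 40 to 50 Mb and 8.47% of the 59 from 50 Mb on. The part from 20 to 30 Mb, with about the share of the dense start, held 8.3, 5.7 and 7.3 peaks per Mb in jj replicates 1 and 2 and ctrl. The part from 30 to 40 Mb held 9.7, 4.1 and 8.6. The share called in all 3 libraries thus did not simply follow the density of jj replicate 1 or ctrl. In jj replicate 2, the library with the shortest list, density had nearly the order of the shares. The start of chromosome 20 was about as dense as the densest parts of chromosome 10.

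On each chromosome the 1 Mb window with the most regions and the longest stretch without a peak were named, by positions on rn4 counted from 1. On chromosome 10 the window with the most regions was chr10:13000001-14000000, with 37 peaks in jj replicate 1, 28 in replicate 2 and 32 in ctrl and 39 regions, of which 26 were called in all 3 libraries. On chromosome 12 it was chr12:42000001-43000000, with 33, 25 and 27 peaks, 35 regions and 23 of them called in all 3. On chromosome 20 it was chr20:5000001-6000000, with 39, 23 and 29 peaks, 39 regions and 22 of them called in all 3. By peaks of a single library other windows could hold more, up to 28 for jj replicate 2 and 34 for ctrl on chromosome 20 and 33 for ctrl on chromosome 10. In all of the named windows jj replicate 1 had the most peaks and jj replicate 2 the fewest, the order of the lengths of their lists.

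On these chromosomes the longest stretch without a peak of any own list was chr12:23698225-25228419, of 1530.2 kb. It was 799.9 kb long on chromosome 10, at chr10:8184719-8984662, and 722.6 kb long on chromosome 20, at chr20:19254662-19977238. Whether such stretches hold sequence that can be mapped was not analysed here.

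Runs of at least 5 regions, each within 10 kb of the next, numbered 13 on the 3 chromosomes, or 0.611 per 10 Mb, beside 75 on the other autosomes, or 0.320 per 10 Mb. They held 2.44% of the regions on the 3 chromosomes and 1.69% of those elsewhere. Chromosome 10 had 8 runs (0.723 per 10 Mb), chromosome 12 had 4 (0.855 per 10 Mb) and chromosome 20 had 1 (0.181 per 10 Mb, with 1.03% of its regions). By rate, chromosome 20 was below the pooled other autosomes in runs, and chromosomes 10 and 12 were above. These rates rest on few runs, only 1 on chromosome 20, and have no counting interval, so the order was not tested. The run on chromosome 20, chr20:2700339-2736895, joined 8 regions in 36.6 kb, and jj replicate 1 had peaks in 8 of them, jj replicate 2 in 3 and ctrl in 6. The longest run on chromosome 12, chr12:16800709-16832096, joined 8 regions in 31.4 kb, and that on chromosome 10, chr10:12994599-13029813, joined 7 in 35.2 kb. In each of these runs 3 regions were called in all 3 libraries.

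Regions called in all 3 libraries made up 1535 of the 3200 on chromosomes 10, 12 and 20, or 48.0% (95% interval 46.2% to 49.7%), where 30.2% of the regions of the whole series were so called. On the 17 other autosomes the share was likewise 30.2% (29.7% to 30.7%). It was 52.4% on chromosome 10, 46.9% on chromosome 12 and 39.6% on chromosome 20. Chromosomes 10 and 12 ranked first and second of the 20 autosomes, above chromosome 19 with 41.5%, and chromosome 20 ranked 4, inside the range of the others.

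Regions called in jj only, with a peak in at least 1 jj library and none in ctrl, were 884 of 3200, or 27.6% (26.1% to 29.2%), where 43.4% of all regions of the series were so called. The other autosomes had 43.6%, a difference of −16.0 percentage points that was −5.05 points without jj replicate 1. Most of the 884 were called in jj replicate 1 alone, 774 regions or 24.2% against 37.6% on the other autosomes. A further 69 were called in jj replicate 2 alone, 2.16% against 4.29%. Both jj libraries and not ctrl had a peak in 41 regions, 1.28% (0.921% to 1.73%), where the share in the whole series was 1.71%. That pooled share is near the background. The 41 regions fell as 26 on chromosome 10 (1.56%), 3 on chromosome 12 (0.399%, 0.0825% to 1.16%) and 12 on chromosome 20 (1.54%), so the share of chromosome 12 was below that of the series.

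Regions called in ctrl only were 292 of 3200, or 9.12% (8.15% to 10.2%), where 15% of all regions of the series were so called. The other autosomes had 15.1%, a difference of −5.98 percentage points that was −9.38 points without jj replicate 1. Chromosome 10 had 7.73%, chromosome 12 8.12% and chromosome 20 13.1%. Chromosomes 10 and 12 had the lowest shares of the 20 autosomes, and chromosome 20 ranked 14 from the highest. Regions with a peak in jj replicate 1 and ctrl but not in jj replicate 2, the library with the shortest list, were 481 or 15.0%, against 10.6% on the other autosomes. In the lists as deposited, sharing was thus higher and calls in a single library were rarer on the 3 chromosomes, for jj and for ctrl alike. With lists of equal size, the differences for all 3 libraries, jj only and ctrl only were 6.45, −7.40 and −1.35 percentage points. With equal strength classes, described below, they were −0.864, −2.79 and 1.90 points.

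Sharing in the lists as deposited was also higher when each list was followed by itself. On the 3 chromosomes, jj replicate 2 shared 95.4% of its peaks with jj replicate 1 and 93.2% with ctrl, against 87.1% and 83.5% on the other autosomes. The ctrl library shared 87.1% of its peaks with jj replicate 1 and 66.5% with jj replicate 2, against 72.5% and 54.3%. For jj replicate 1 the shares were 55.7% with jj replicate 2 and 71.2% with ctrl, against 39.8% and 51.0%. Peaks of the shortest list were the ones most often found in another list, on both sets of chromosomes.

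Sharing rose with strength. Each region was put in a class by the highest −log10 q of its peaks. Of regions under 2, 0.284% on the 3 chromosomes and 0.246% on the other autosomes were called in all 3 libraries. From 2 to 5 the shares were 5.37% and 5.85%, from 5 to 10 they were 28.8% and 33.6%, from 10 to 20 they were 76.3% and 79.4%, and at 20 or more 98.9% and 98.8%. Within a class the 3 chromosomes were therefore close to the others or below them. With peaks under a −log10 q of 5 left out, the difference from the other autosomes turned to −0.987 percentage points for all 3 libraries and to 0.359 points for jj only. The makeup differed as well, with 22.0% of the regions on the 3 chromosomes under 2 and 26.2% at 20 or more, against 44.5% and 16.6% on the other autosomes. A region called in more libraries takes the highest of more values, so its class is not independent of its sharing.

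With the classes of the 3 chromosomes weighted as on the other autosomes, a calculation added after the data were seen, 29.4% of regions were called in all 3 libraries, 40.8% in jj only and 17.0% in ctrl only. The shares measured on the other autosomes were 30.2%, 43.6% and 15.1%. With the classes made alike, the share called in all 3 libraries and the share in jj only were thus slightly below those of the other autosomes and the share in ctrl only was slightly above. Strength here includes the depth of each library, which is unknown, and its part in the result was not tested.

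Regions called in a single library were weak on these chromosomes too. The median of the highest −log10 q was 2.15 for the 774 regions of jj replicate 1 alone, 1.57 for the 69 of jj replicate 2 alone and 1.41 for the 292 of ctrl alone, beside 1.61, 1.77 and 1.41 on the other autosomes. Of them, 20, 0 and 2 reached 10, beside 92 of 11676, 0 of 1332 and 1 of 4693 on the other autosomes. For jj replicate 1 alone such regions were few, but a larger part than elsewhere. For ctrl alone the counts of 2 and 1 are too small to compare. Under 3 were 64.7% of the regions of jj replicate 1 alone, 97.1% of those of jj replicate 2 alone and 94.5% of those of ctrl alone. On the other autosomes the shares under 3 were 85.1%, 95.2% and 97.6%. The share under 3 was thus lower on the 3 chromosomes for jj replicate 1 alone and for ctrl alone.

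Of the peaks of jj replicate 1 on chromosomes 10, 12 and 20, 1510 of 2831, or 53.3% (51.5% to 55.2%), overlapped a peak of its list called with ctrl as the control, where 39.1% of all peaks of that library did. On the other autosomes 39.2% did. The share was 55.6% on chromosome 10, 52.1% on chromosome 12 and 49.5% on chromosome 20. By strength it was 10.1% under 2, 23.2% from 2 to 5, 43.8% from 5 to 10, 64.1% from 10 to 20 and 86.3% at 20 or more on the 3 chromosomes. On the other autosomes the classes had 9.10%, 25.5%, 40.4%, 62.6% and 86.4%, so peaks of like strength were called against ctrl about equally often.

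A peak called against ctrl is not a peak missing from ctrl. The list of jj replicate 1 against ctrl held 7.22 peaks per Mb on the 3 chromosomes and 4.31 on the other autosomes, and 83.7% of its peaks on the 3 chromosomes (81.7% to 85.5%) overlapped an own peak of ctrl, against 73.7% elsewhere. The overlap was 86.0% on chromosome 10, 83.9% on chromosome 12 and 77.5% on chromosome 20. Most places on these chromosomes that the caller scored in jj replicate 1 over ctrl were thus places where ctrl had its own peak.

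None of the 1664 peaks of jj replicate 2 on the 3 chromosomes overlapped a peak of its list against ctrl, where 1.15% of all peaks of that library did. That list held 0 peaks on the 3 chromosomes, beside 118 on the other autosomes, and at the density of the other autosomes 212.7 Mb would hold 10.7. The other autosomes had 0.0503 peaks per Mb. Chromosome 11 also held 0, while chromosome 13 held 23, chromosome 18 held 16 and chromosome 2 held 13, so the 118 peaks were spread unevenly. No region on chromosomes 10, 12 and 20 was therefore called against ctrl in both jj libraries.

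Individual regions were named by rules on fold, width and −log10 q. The regions called in all 3 libraries with the highest smallest fold were taken first. On chromosome 12 the first was chr12:41481026-41481529, with folds of 17.7 in jj replicate 1, 17.1 in replicate 2 and 18.6 in ctrl. On chromosome 10 it was chr10:29082099-29082750, with folds of 13.4, 13.8 and 14.6, and on chromosome 20 chr20:47465896-47466478, with 10.8, 9.60 and 9.69. Folds come from separate lists and are not ratios of jj to ctrl. All 3 regions were called in jj replicate 1 against ctrl. Each had a −log10 q of 20 or more in jj replicate 1, and 86.3% of such peaks on the 3 chromosomes were so called. The list of jj replicate 2 against ctrl held 0 peaks on these chromosomes, so it could call none of them.

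The region chr10:29082099-29082750 had a −log10 q of 3029.7 in jj replicate 1, 1504 in replicate 2 and 2552 in ctrl. The region chr12:41481026-41481529 followed with 240.2, 124.0 and 197.6, so chr10:29082099-29082750 stood far apart from the other named regions in each library. The sequence there was not analysed here. At a like fold, chr10:21424096-21424415 had 72.3, 43.6 and 71.9, with folds of 14.4, 13.3 and 15.6. At a given fold the −log10 q rises with the coverage of a peak, which the lists do not give. Both chr10:29082099-29082750 and chr12:41481026-41481529 were also called in jj replicate 1 against ctrl, and chr10:21424096-21424415 was not.

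The next regions by this rule follow. The region chr10:47327428-47328106 had folds of 12 in jj replicate 1, 10.9 in replicate 2 and 11.2 in ctrl. On chromosome 12, chr12:23689864-23690485 had 12.3, 11.4 and 14.0 and chr12:22207995-22208691 had 11, 10.1 and 10.8. On chromosome 20, chr20:5853474-5854265 had 9.57, 10.1 and 9.90 and chr20:45409291-45409990 had 9.97, 9.84 and 9.51. The first of the chromosome 12 pair ends shortly before the longest stretch without a peak begins, and chr20:5853474-5854265 lies in the window with the most regions on chromosome 20. All 5 were also called in jj replicate 1 against ctrl.

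The widest regions had low folds. The widest on chromosome 12, chr12:45352790-45356760, measured 3971 bp and had folds of 3.11 in jj replicate 1, 3.91 in replicate 2 and 3.65 in ctrl, with 2 peaks in each of the latter libraries, of which the higher fold is given. On chromosome 20, chr20:46260988-46264646 measured 3659 bp with folds of 3.44, 3.73 and 3.65. On chromosome 10, chr10:109655486-109659136 measured 3651 bp with folds of 2.94, 3.45 and 3.10. All were called in the 3 own lists and in jj replicate 1 against ctrl, with jj replicate 2 having the highest fold in each. Their −log10 q in jj replicate 1 was 8.46, 13.3 and 6.76 in the same order. Of all jj replicate 1 peaks on the 3 chromosomes, 43.8% from 5 to 10 and 64.1% from 10 to 20 were called against ctrl.

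Of the 41 regions called in both jj libraries and not in ctrl, those with the highest smaller −log10 q on each chromosome were named. On chromosome 20, chr20:194009-194477 had a −log10 q of 7.79 in jj replicate 1 and 5.68 in jj replicate 2, and chr20:10060274-10060725 had 6.96 and 4.55. On chromosome 10, chr10:58113316-58113707 had 6.50 and 4.67 and chr10:58118581-58119574 had 4.12 and 4.99. On chromosome 12, chr12:42446896-42447323 had 9.36 and 3.80 and chr12:9259362-9260052 had 2.91 and 3.14. The pair on chromosome 10 lies close together, and chr12:42446896-42447323 lies in the window with the most regions on chromosome 12. None of the 6 was called in jj replicate 1 against ctrl, so for these regions the absence of a ctrl peak did not come with such a call. Of all jj replicate 1 peaks on the 3 chromosomes, 23.2% at a −log10 q of 2 to 5 and 43.8% from 5 to 10 were so called. The list of jj replicate 2 against ctrl held 0 peaks on these chromosomes, so it could call none of the 6.

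Of the 292 regions called in ctrl only, the highest on each chromosome were chr12:3114123-3114400 with a −log10 q of 14.6 and a fold of 5.54, chr10:61939465-61939717 with 9.30 and 7.36, and chr20:25103370-25103659 with 4.60 and 4.45. The next were chr12:7656606-7656902 with 12.7 and 8.08, chr10:43423321-43423710 with 7.55 and 6.36, and chr20:45466938-45467375 with 4.26 and 5.09. These regions are narrow, from 253 to 438 bp. With 1 ctrl library, a region of ctrl alone and a region of 1 run cannot be told apart.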

How the data were processed

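ChIP-Seq of H3K14Ac was analysed in 2 jj libraries and 1 ctrl library. Per the study's methods and the submitters' processing notes (Bowtie2, MACS2, FastQC and HOMER), the authors mapped reads to rn4 with Bowtie2, filtered duplicates and called broad peaks with MACS2. Versions and options are not given in the sources used here. Peaks were called per library, so animals within a pool have no values of their own. In each deposited list the authors give a fold enrichment, a linear ratio, and the deposited −log10 p and −log10 q values, written as averages over the peak. The lists hold no read totals, so depth is unknown.

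Counts, merging and overlaps used Python 3.11.15, numpy 2.4.6, pandas 2.3.3 and scipy 1.17.1, with an overlap of at least 1 bp, windows of 1 Mb, bins of 10 Mb and a neighbour limit of 10 kb. Ratios of median to mean gap pool the gaps of all chromosomes in a set. Scripts were tested on simulated data. Peaks on unplaced sequence, the X chromosome and mitochondrial DNA are in neither set, but count in the whole series. Intervals are exact at 95%. No test was made: chromosomes and peaks are not replicates and ctrl is 1 library. The members and lists were chosen with earlier results of these data known.

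Named on each chromosome were the 3 regions called in all 3 libraries with the highest smallest fold, the widest region, the window with the most regions, the longest stretch without a peak, and the first 2 regions of both jj libraries and not ctrl and of ctrl only by −log10 q. The longest runs were named after their values were seen. Alternatives were limits of 3 and 5 on −log10 q, lists of equal size, each chromosome or jj library left out, other limits for neighbours, joining and overlap, another chromosome length, and, added after seeing the data, equal strength classes. Genes, gene density and sequences of the peaks were not analysed here.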

Additional observations from a re-analysis of the deposited data

How the results depend on the processing

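Over 14 results and 105 alternatives, 55 values stayed within the spread of the 2 jj libraries or the counting interval of a share, 38 moved beyond it with the same sign and 12 reversed. Some of the 55 could not have moved. Lists of equal size leave jj replicate 2, the shortest list, unchanged. Its list against ctrl held 0 peaks on the 3 chromosomes, so leaving out a chromosome could not change its share called against ctrl. Values are ratios for density and otherwise differences of chromosomes 10, 12 and 20 from the other autosomes, in bp for width and in percentage points for shares. With −log10 q of at least 3, density came to 1.84 (jj replicate 1) and 1.86 (ctrl), and width reversed to −2, −5 and −12 in jj replicates 1 and 2 and ctrl. The shares in all 3 libraries, jj only and ctrl only were then 0.965, −1.98 and −0.511, and the shares called against ctrl 2.73 in jj replicate 1 and −0.286 in jj replicate 2. With at least 5, density was 1.89 and 1.87, width reversed to −10, −17 and −23, neighbours within 10 kb were 3.20 in jj replicate 2 and 5.87 in ctrl, the shares in all 3 libraries and jj only reversed to −0.987 and 0.359, ctrl only was −0.379, and the shares called against ctrl were 0.202 and −0.220. With lists of equal size, density came to 1.89 (jj replicate 1) and 1.83 (ctrl), width reversed to −10 and −9, and the 3 shares were 6.45, −7.40 and −1.35. Without chromosome 10, width came to 14 (jj replicate 1) and 7 (ctrl), the 3 shares were 12.9, −13.7 and −4.46, and the share called against ctrl in jj replicate 1 was 11.6. Without chromosome 20 the 3 shares were 20.4, −18.2 and −7.25. Neighbours within 5 kb were 3.57, 1.71 and 2.62 in jj replicates 1 and 2 and ctrl, and within 50 kb 16.1 in replicate 2 and 15.8 in ctrl. With a jj library left out, the 3 shares ranged from 14.4 to 21.7, from −15.0 to −5.05 and from −9.38 to −6.67. With the strength classes weighted as on the other autosomes, chosen after seeing the data, all 3 libraries reversed to −0.864, jj only was −2.79 and ctrl only reversed to 1.90. For the values that moved or reversed, the cause was not tested. The density of peaks stayed higher on the 3 chromosomes than on the other autosomes under all alternatives tried. Read depth is unknown, so whether a weak peak was missed in a library cannot be said.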

Other observations

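Peaks on sequence assigned to chromosomes 10, 12 or 20 without a place on it were left out of the counts. For chromosome 10 they were 4 in jj replicate 1, 1 in replicate 2 and 2 in ctrl. For chromosome 12 they were 10, 4 and 5, and for chromosome 20 they were 15, 8 and 11. The lists against ctrl added 1, 6 and 10 for jj replicate 1 on chromosomes 10, 12 and 20 and 0 for jj replicate 2.

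Some other autosomes had values near those of chromosome 20. The share of peaks with a neighbour within 10 kb was 26.9% in jj replicate 1, 18.7% in replicate 2 and 24.5% in ctrl on chromosome 7, 24.4%, 17.8% and 21.3% on chromosome 16, and 24.5%, 15.6% and 18.1% on chromosome 19, beside 25.5%, 16.6% and 19.9% on chromosome 20. Chromosome 19 had 41.5% of its regions called in all 3 libraries, 35.4% in jj only and 11% in ctrl only, and chromosome 8 had 37.6%, 38.1% and 12.9%, where chromosome 20 had 39.6%, 34.6% and 13.1%. In these measures chromosome 20 lay closer to chromosome 19 than to chromosome 10.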
